A study of Mus musculus with 12 samples.

Results

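The 9 genes described here encode cystatin C (Cst3), the cathepsins B, D, L, S and Z (Ctsb, Ctsd, Ctsl, Ctss and Ctsz), the alpha subunit of beta-hexosaminidase (Hexa), and the lysosomal membrane glycoproteins Lamp1 and Cd68. They were chosen by name, as a secreted protease inhibitor, cathepsins and their lysosomal neighbours, from the 55401 genes of the counts. Earlier results of these data were known at that choice, so member counts set beside those of all genes are descriptions. All 9 were among the 12613 genes that passed the filter on low counts. The libraries came from mice that carry CD51-Flp, a recombinase driven from the gene of the integrin subunit CD51 (Itgav), and Rosa-CAG-FSF-tdTomato, a reporter that recombination switches on. Cells positive for tdTomato and GFP were sorted as CD51+ astrocytes, and cells with GFP but no tdTomato as CD51- astrocytes, each from cortex and from hippocampus. This gave 4 groups of 3 libraries: cortex CD51+, cortex CD51-, hippocampus CD51+ and hippocampus CD51-. The labels name neither the driver of GFP nor the age of the mice. They also do not tie replicates to different animals, and the spread behind each p-value may therefore be technical.

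Lysosomes break down protein, glycan and lipid in an acid compartment. Cathepsins are their proteases, made as inactive precursors and cut to the active form inside the organelle. Cystatin C is a small secreted inhibitor that binds cysteine cathepsins such as cathepsins B, L and S, but not the aspartic protease cathepsin D. In the brain, astrocytes are a known source of cystatin C, while cathepsin S and Cd68 are used as marks of microglia and other phagocytes.

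Libraries held 4351897 to 12847183 counts. Between 36.5% and 71.1% of the counts were mitochondrial in CD51+ libraries, against 20.2% to 38.6% in CD51- libraries. The label "astrocyte" was checked with 15 astrocyte markers, whose summed level was 64622 ± 10027 CPM (mean ± SD; CPM are counts scaled to a fixed library total) in cortex CD51+ and 8277 ± 4986 CPM in cortex CD51-, and 52677 ± 6362 CPM in hippocampus CD51+ and 14947 ± 1386 CPM in hippocampus CD51-. Microglial markers and the sums of oligodendrocyte markers and of markers of other macrophages and leukocytes were higher in the CD51- groups. The sum of 14 microglial markers, with no member gene among them, was 588 ± 387 CPM in cortex CD51+ and 10138 ± 1566 CPM in cortex CD51-, and 700 ± 871 CPM in hippocampus CD51+ and 6670 ± 1607 CPM in hippocampus CD51-. The 10 markers of other macrophages and leukocytes summed to 10.9 ± 18.2 CPM in cortex CD51+ and 658 ± 107 CPM in cortex CD51-. In hippocampus they summed to 13.2 ± 9.92 CPM in CD51+ and 650 ± 81.5 CPM in CD51-. Ptprc had the highest mean among them in both CD51- groups, at 476 CPM in cortex and 330 CPM in hippocampus. The 12 oligodendrocyte markers summed to 2938 ± 150 CPM in cortex CD51+ and 43907 ± 17894 CPM in cortex CD51-, and to 3961 ± 1812 CPM in hippocampus CD51+ and 24994 ± 16216 CPM in hippocampus CD51-. Mbp made most of the CD51- sums, at 33283 CPM in cortex and 18091 CPM in hippocampus. Opalin in cortex, and Mog, Mag and Cnp in hippocampus, had higher means in CD51+. The other oligodendrocyte means were higher in CD51-. The sum of 10 neuronal markers had the higher mean in CD51+ in both regions. It was 247 ± 181 CPM in cortex CD51+ and 214 ± 67.9 CPM in cortex CD51-, where the libraries overlapped. In hippocampus it was 274 ± 106 CPM in CD51+ and 75.8 ± 56.04 CPM in CD51-. Snap25 made most of each sum, and the markers were divided. Rbfox3, Stmn2 and Gad1 had lower means in CD51+ in both regions, Slc17a7 in cortex, and Syt1 and Gad2 in hippocampus. The other means were higher in CD51+. The sum of 5 markers of oligodendrocyte precursors also had the higher mean in CD51+ in both regions. It was 89.0 ± 105 CPM in cortex CD51+ and 16.5 ± 14.3 CPM in cortex CD51-. In hippocampus it was 65.0 ± 12.9 CPM in CD51+ and 39.9 ± 31.3 CPM in CD51-. Vcan made most of each sum, at 87.9 CPM in cortex CD51+ and 65.0 CPM in hippocampus CD51+. Cspg4, Gpr17 and C1ql1 were at 0 in both CD51+ groups. Pdgfra was at 1.08 CPM in cortex CD51+ and 1.07 CPM in cortex CD51-. It was at 0 in hippocampus CD51+ and at 2.02 CPM in hippocampus CD51-. The 6 markers of ependyma and choroid plexus summed to 48.0 ± 31.0 CPM in cortex CD51+ and 201 ± 205 CPM in cortex CD51-. In hippocampus they summed to 1508 ± 917 CPM in CD51+ and 3227 ± 2192 CPM in CD51-, and the libraries overlapped in both regions. Ttr made most of each sum. Foxj1 in both regions and Tmem212 in hippocampus had higher means in CD51+. Itgav itself ranged from 323 to 879 CPM in CD51+ libraries and from 223 to 565 CPM in CD51- libraries, so the classes overlapped. The library names carry G for samples titled CD51+ and GT for samples titled CD51-, and the labels do not say what these letters stand for. If they stand for GFP and tdTomato, the names go against the titles. The groups here follow the titles, and every CD51 direction given would turn if the titles were exchanged.

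The promoters of 4 members are shown because they differ in the short motifs described below. Sequences were taken from RefSeq (GRCm38.p6), which held 8 of the 9 members in the table used, all but Ctsb. The stretches run 5′ to 3′ on the gene's strand from 250 bases before the annotated start, and the capitals mark CACGTG, the core of the motif bound by the lysosomal regulator Tfeb, or GAGGAAGT read on either strand, a motif of the type bound by the myeloid factor PU.1.
Cst3, chr2:148875504-148875762, minus strand: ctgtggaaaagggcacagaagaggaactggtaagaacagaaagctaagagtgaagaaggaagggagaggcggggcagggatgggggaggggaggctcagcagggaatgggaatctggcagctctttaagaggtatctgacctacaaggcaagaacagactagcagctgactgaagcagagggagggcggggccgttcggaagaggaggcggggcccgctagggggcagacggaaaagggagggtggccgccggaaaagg
Ctss, chr3:95526536-95526794, plus strand: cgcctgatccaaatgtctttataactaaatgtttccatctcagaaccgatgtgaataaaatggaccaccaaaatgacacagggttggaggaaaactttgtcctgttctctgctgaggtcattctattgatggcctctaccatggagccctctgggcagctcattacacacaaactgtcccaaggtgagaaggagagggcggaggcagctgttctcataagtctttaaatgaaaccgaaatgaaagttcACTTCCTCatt
Ctsd, chr7:142387819-142388077, minus strand: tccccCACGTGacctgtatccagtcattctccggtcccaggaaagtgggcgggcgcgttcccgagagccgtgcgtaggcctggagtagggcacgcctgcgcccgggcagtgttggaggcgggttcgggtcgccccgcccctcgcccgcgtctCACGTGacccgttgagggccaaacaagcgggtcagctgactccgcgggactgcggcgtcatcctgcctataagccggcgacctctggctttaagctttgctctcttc
Lamp1, chr8:13158911-13159169, plus strand: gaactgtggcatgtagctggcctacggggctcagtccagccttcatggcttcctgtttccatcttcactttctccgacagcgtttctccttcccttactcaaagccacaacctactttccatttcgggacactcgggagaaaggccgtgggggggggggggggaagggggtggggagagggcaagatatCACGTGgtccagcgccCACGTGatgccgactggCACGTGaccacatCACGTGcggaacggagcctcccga

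CACGTG stood 4 times in the 300-base Lamp1 window, starting at positions -61, -45, -28 and -15 from the start. It stood 2 times in that of Ctsd, at -245 and -98, and 1 time in that of Ctsl, at -236, a window not printed here. The longer form GTCACGTG, which contains CACGTG, was found 2 times for Ctsd and 1 time for Lamp1. Neither was found in the windows of Cst3, Ctss, Ctsz, Hexa or Cd68. GAGGAAGT was found only for Ctss among the 8 members, on the reverse strand at -2. With both strands searched, CACGTG was in 7.15% of 32851 RefSeq promoter windows of the same length, GTCACGTG in 2.25% and GAGGAAGT in 3.20%. Among 108 windows of the other lysosomal genes listed further on, these shares were 23.1%, 15.7% and 2.78%. These matches are letters in a window and say nothing of binding.

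Cystatin C was the most abundant of the 9 transcripts per length in every group. Divided by exon length, Cst3 averaged 2034 ± 429 CPM per kb in cortex CD51+ and 1345 ± 268 CPM per kb in cortex CD51-. In hippocampus it averaged 2104 ± 778 CPM per kb in CD51+ and 1372 ± 276 CPM per kb in CD51-. Per library, Cst3 (2:148871722-148875692, mm10) had 2031, 3117 and 2577 CPM in cortex CD51+, against 2059, 1384 and 1663 CPM in cortex CD51-. It had 2147, 2044 and 3801 CPM in hippocampus CD51+, against 1351, 2028 and 1834 CPM in hippocampus CD51-. The 2 classes did not overlap in hippocampus, where the lowest CD51+ and highest CD51- libraries nearly met, and overlapped in cortex. The log2 fold change of CD51+ over CD51- was 0.60 ± 0.41 (SE) in cortex and 0.62 ± 0.41 in hippocampus. Neither passed an adjusted p of 0.05 in the quasi-likelihood test of edgeR (adjusted p = 0.340 and 0.477), nor did the average over both regions (0.61 ± 0.29, adjusted p = 0.139).

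**Figure D1:**
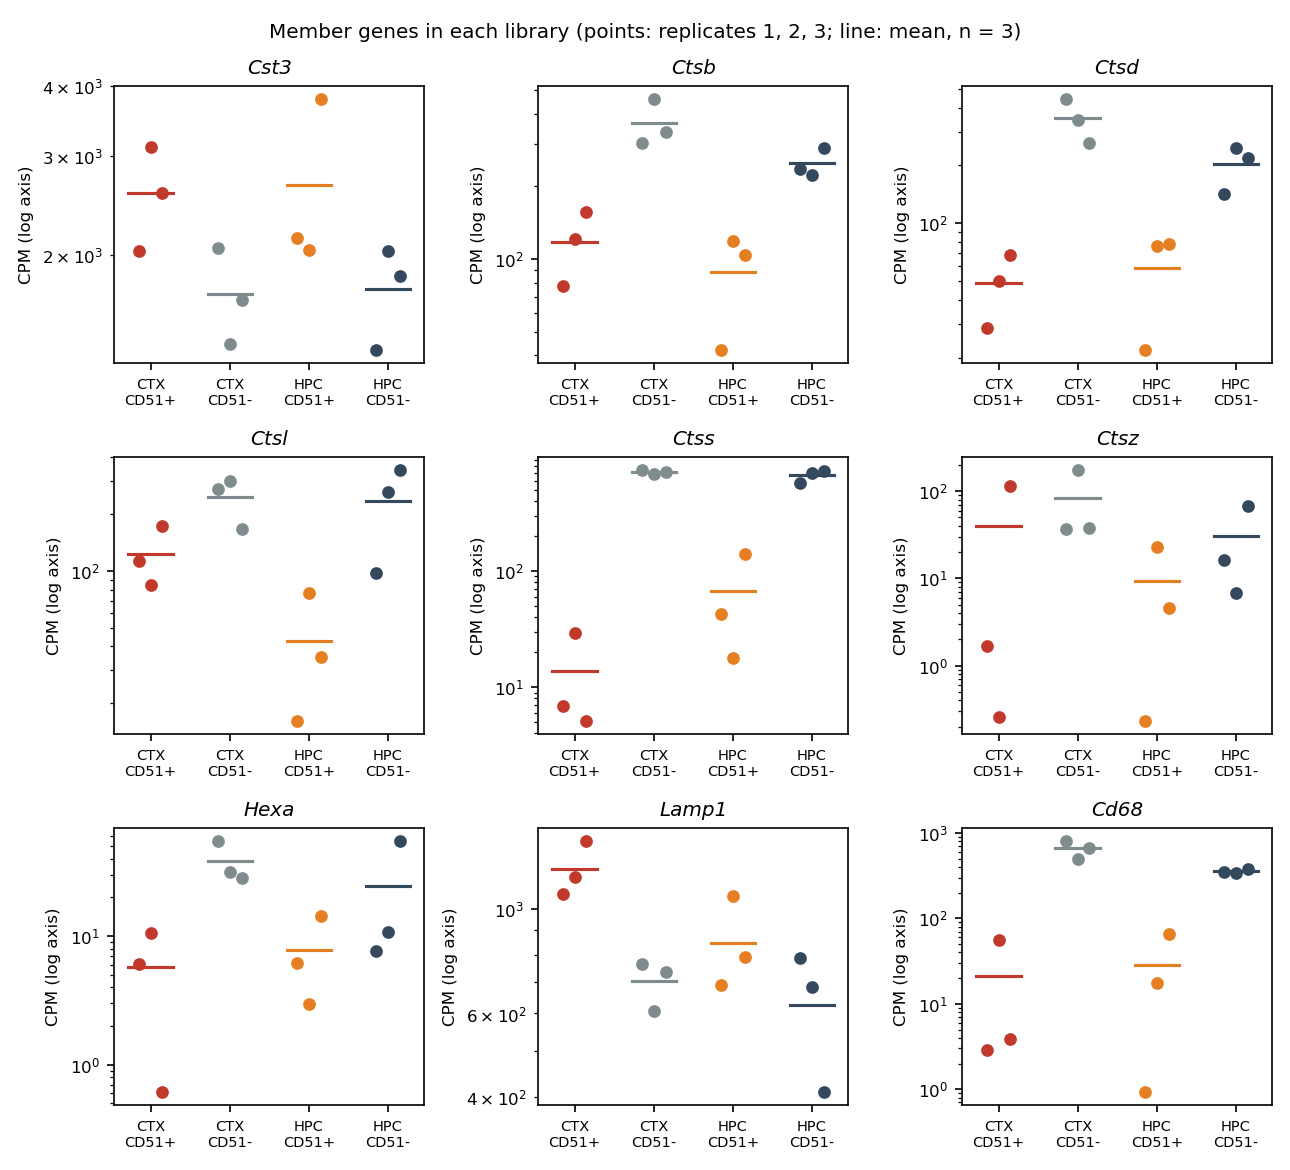
CPM of each of the 9 genes (log axis) in the 12 libraries, in the order cortex CD51+, cortex CD51-, hippocampus CD51+, hippocampus CD51-; points are replicates 1 to 3 and lines are means of 3. Ctss and Cd68 sit lower in all CD51+ libraries than in all CD51- libraries, while Ctsz and Hexa are spread widely within groups.

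In the average over both regions, 5 of the 9 genes were lower in CD51+ cells: Ctsb, Ctsd, Ctsl, Ctss and Cd68. In that comparison 22.7% of all tested genes were called, 13.9% lower and 8.87% higher, and the median log2 fold change was -1.73 over the 9 genes and -0.14 over all tested genes. No member was called higher with edgeR as reported, while limma-voom called Cst3 (0.58, adjusted p = 0.0168) and Lamp1 (0.63, adjusted p = 0.0225) higher, and edgeR with upper-quartile factors called Cst3 higher (adjusted p = 0.0490). In cortex alone 3 members were called lower (Ctsd, Ctss and Cd68), where 11.3% of all genes were called, 6.27% lower and 5.05% higher. In hippocampus alone 1 was called (Ctss), where 3.31% were called, 2.7% lower and 0.618% higher. The sums given above of markers of microglia, of other macrophages and leukocytes, and of oligodendrocytes moved in the same direction as these genes. The astrocyte sum moved in the opposite direction. The part of these sums in the result was not tested. In bulk libraries, fewer cells of a type and less RNA per cell cannot be told apart.

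Cathepsin S, a cysteine protease of antigen-presenting cells and microglia that keeps its activity at neutral pH, showed the widest difference of the 9 genes in cortex and on average, and the second widest, after Cd68, in hippocampus. Ctss (3:95526786-95556403) had 6.89, 29.2 and 5.07 CPM in cortex CD51+, against 747, 682 and 712 CPM in cortex CD51-. It had 42.9, 17.7 and 140 CPM in hippocampus CD51+, against 578, 698 and 733 CPM in hippocampus CD51-. All 6 CD51+ libraries lay below all 6 CD51- libraries, and the CD51- libraries of the 2 regions lay close together. The log2 fold change was -5.69 ± 0.85 in cortex (edgeR adjusted p = 0.00020), -3.32 ± 0.76 in hippocampus (adjusted p = 0.0146) and -4.51 ± 0.57 on average (adjusted p = 7.3e-06). The hippocampal call was lost without hippocampus CD51+ replicate 1 (adjusted p = 0.0640) and without replicate 2 (adjusted p = 0.0748). The difference between the regions, 2.37 ± 1.001 log2 units smaller in size in hippocampus, had an unadjusted p of 0.0263 and an edgeR adjusted p of 0.329.

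Cd68, a glycoprotein of phagocyte lysosomes related to the LAMP proteins, was also lower in CD51+ cells in cortex and on average. Cd68 (11:69664213-69666153) had 2.85, 55.9 and 3.86 CPM in cortex CD51+, against 812, 495 and 668 CPM in cortex CD51-. It had 0.918, 17.6 and 66.0 CPM in hippocampus CD51+, against 348, 341 and 376 CPM in hippocampus CD51-. The classes did not overlap in either region. The log2 fold change was -4.97 ± 1.15 in cortex (edgeR adjusted p = 0.00692), -3.65 ± 1.08 in hippocampus (adjusted p = 0.0623) and -4.31 ± 0.79 on average (adjusted p = 0.00045). Without cortex CD51+ replicate 2, the CD51+ library with 55.9 CPM, the cortical value of Cd68 was -7.62 (adjusted p = 0.00049). The hippocampal value passed the threshold in 14 of the 22 alternatives, with DESeq2 (adjusted p = 0.0393) and limma-voom (adjusted p = 0.0249) among them.

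Cathepsin D, the main aspartic protease of lysosomes, was lower in CD51+ cells in cortex and on average. Ctsd (7:142375911-142388038) had 28.4, 50.02 and 68.0 CPM in cortex CD51+, against 445, 345 and 263 CPM in cortex CD51-. It had 21.8, 76.2 and 78.1 CPM in hippocampus CD51+, against 142, 245 and 220 CPM in hippocampus CD51-. No CD51+ library reached any CD51- library. The log2 fold change was -2.85 ± 0.71 in cortex (edgeR adjusted p = 0.0115), -1.78 ± 0.68 in hippocampus (adjusted p = 0.148) and -2.32 ± 0.49 on average (adjusted p = 0.00185). The cortical call was lost without cortex CD51+ replicate 1 (adjusted p = 0.0626). Of its exons, 34.4% are shared with the predicted gene Gm49369 on the same strand, and read pairs there were not counted for either gene.

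Cathepsin B, a cysteine protease that also trims peptides from their ends, had 77.4, 121 and 156 CPM in cortex CD51+, against 303, 462 and 335 CPM in cortex CD51-. In hippocampus, Ctsb (14:63122462-63145923) had 42.0, 119 and 104 CPM in CD51+, against 236, 222 and 290 CPM in CD51-. The classes did not overlap in either region. The average log2 fold change was -1.56 ± 0.44 (edgeR adjusted p = 0.0137), with -1.63 ± 0.62 in cortex (adjusted p = 0.0803) and -1.50 ± 0.62 in hippocampus (adjusted p = 0.178). Without hippocampus CD51+ replicate 1, the library with the lowest Ctsb, the average had an adjusted p of 0.0510. Its exons share 774 bases with Fdft1 on the opposite strand, where unstranded counting cannot assign reads.

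Cathepsin L, an endopeptidase of the same papain family, had 114, 84.5 and 173 CPM in cortex CD51+, against 273, 300 and 168 CPM in cortex CD51-, and these groups overlapped. In hippocampus, Ctsl (13:64359337-64370890) had 16.1, 77.1 and 35.01 CPM in CD51+, against 97.5, 263 and 345 CPM in CD51-, with no overlap. The average log2 fold change was -1.73 ± 0.51 (edgeR adjusted p = 0.0181), with -0.996 ± 0.71 in cortex (adjusted p = 0.354) and -2.46 ± 0.74 in hippocampus (adjusted p = 0.0693). The average rests on single libraries: without hippocampus CD51+ replicate 1, hippocampus CD51+ replicate 3 or hippocampus CD51- replicate 3, the adjusted p was 0.0540, 0.0509 and 0.0520. The exons of Ctsl share 26.8% of their length with the predicted gene Gm47123 on the opposite strand. With hippocampus CD51+ replicate 1 left out, Ctsb and Ctsl were both lost and 3 members were called in the average.

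Cathepsin Z, a carboxypeptidase, and Hexa, whose product acts on the ganglioside GM2, could not be placed at this spread. Ctsz (2:174427493-174439039) had 1.68, 0.256 and 116 CPM in cortex CD51+, against 36.5, 177 and 37.8 CPM in cortex CD51-, and 0.229, 23.2 and 4.52 CPM in hippocampus CD51+, against 16.3, 6.87 and 68.5 CPM in hippocampus CD51-. The 116 CPM came from cortex CD51+ replicate 3, and the other 2 libraries of that group lay below every CD51- library. The average log2 fold change was -1.40 ± 1.09 (edgeR adjusted p = 0.391) over all libraries and -4.09 without that library (adjusted p = 0.0221). In cortex it was -1.09 ± 1.54 (adjusted p = 0.681), and 0.10 without cortex CD51- replicate 2. Hexa (9:59539540-59565109) had 6.05, 10.5 and 0.609 CPM in cortex CD51+, against 55.2, 31.5 and 28.2 CPM in cortex CD51-, and 6.19, 2.95 and 14.2 CPM in hippocampus CD51+, against 7.72, 10.9 and 55.4 CPM in hippocampus CD51-. Its cortical groups did not overlap and its hippocampal groups did. The average log2 fold change of Hexa was -2.20 ± 1.04 (edgeR adjusted p = 0.133, and 0.0182 with DESeq2).

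Lamp1, the main glycoprotein of the lysosomal membrane, was called in neither direction. Lamp1 (8:13159161-13175338) had 1076, 1169 and 1395 CPM in cortex CD51+, against 764, 607 and 736 CPM in cortex CD51-. It had 688, 1067 and 789 CPM in hippocampus CD51+, against 785, 682 and 408 CPM in hippocampus CD51-. The cortical groups did not overlap, with CD51+ above, and the hippocampal groups overlapped. The log2 fold change was 0.79 ± 0.46 in cortex (edgeR adjusted p = 0.249), 0.44 ± 0.46 in hippocampus (adjusted p = 0.707) and 0.61 ± 0.33 on average (adjusted p = 0.184, and 0.0225 with limma-voom). Its exons share 9.31% of their length with Grtp1 on the opposite strand, and those of Hexa 12.8% with Tmem202.

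**Figure D2:**
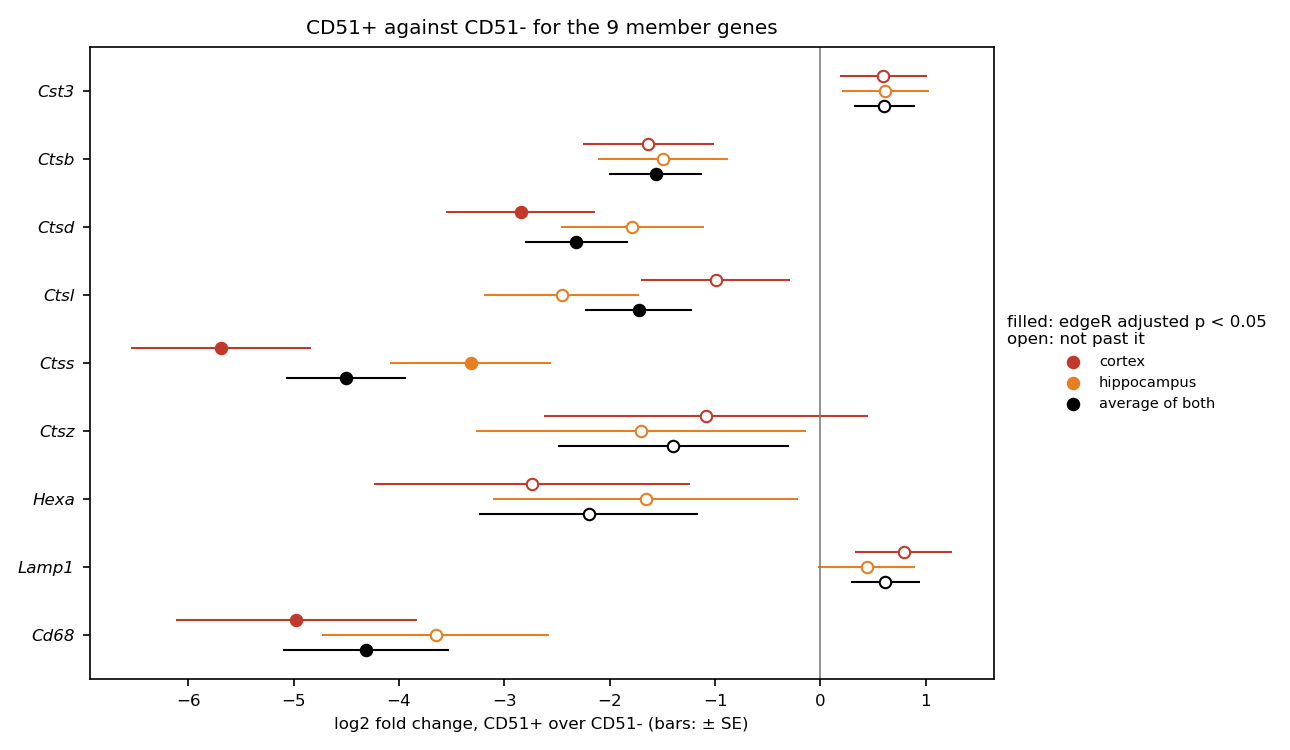
Log2 fold change of CD51+ over CD51- cells with its SE for each of the 9 genes, in cortex, in hippocampus and on average. Filled points passed an edgeR adjusted p of 0.05; Ctss lies farthest left in cortex and on average and Cd68 in hippocampus, and Cst3 and Lamp1 are the genes right of 0.

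Counting libraries alone, 5 members lay wholly lower and 1 wholly higher in CD51+ in cortex, where 31.7% of all tested genes did not overlap in either direction (16.6% lower, 15.1% higher). In hippocampus the counts were 5 lower and 1 higher, against 27.1% of all genes (16.7% lower, 10.5% higher). Compared within each region, 4 members, Ctsb, Ctsd, Ctss and Cd68, lay wholly lower in CD51+ in both, against 8.48% of all genes. None lay wholly higher in both regions, against 4.69%.

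The order of the genes by level changed between the classes below Cst3. In both CD51+ groups Lamp1 was the second per length, at 454 CPM per kb in cortex and 317 CPM per kb in hippocampus, and the genes below it were at most 27.3 CPM per kb in cortex and 49.3 CPM per kb in hippocampus. Those lower neighbours, from the third to the ninth place, overlapped their next neighbour in every case. In both CD51- groups Ctss was the second, at 525 CPM per kb in cortex and 493 CPM per kb in hippocampus, followed by Cd68 at 524 and 282 CPM per kb and Lamp1 at 262 and 234 CPM per kb. Ctss and Cd68 overlapped in cortex CD51-, and Cd68 and Lamp1 overlapped in hippocampus CD51-. Hexa was the lowest in each group, at 2.87 and 3.91 CPM per kb in the CD51+ groups of cortex and hippocampus and 19.2 and 12.4 CPM per kb in the CD51- groups.

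The ratio of inhibitor to protease transcript separated the classes. Cst3 divided by the sum of Ctsb, Ctsd, Ctsl, Ctss and Ctsz, each as CPM per kb, was 33.0, 32.4 and 12.3 in cortex CD51+, against 1.90, 1.22 and 1.77 in cortex CD51-. It was 33.6, 17.3 and 18.5 in hippocampus CD51+, against 1.94, 2.29 and 1.85 in hippocampus CD51-. The lowest CD51+ ratio, in cortex replicate 3, came from the library with the high Ctsz, which made 48.7% of its cathepsin sum. The ratio is a description of these libraries with no test, and it sums proteases that cystatin C inhibits with Ctsd, which it does not. Without division by length, its mean was 8.27 in cortex CD51+ and 0.981 in cortex CD51-, and 11.5 in hippocampus CD51+ and 1.26 in hippocampus CD51-. Ctss made 2.25% to 63.7% of the cathepsin sum in CD51+ libraries and 56.2% to 77.2% in CD51- libraries.

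**Figure D3:**
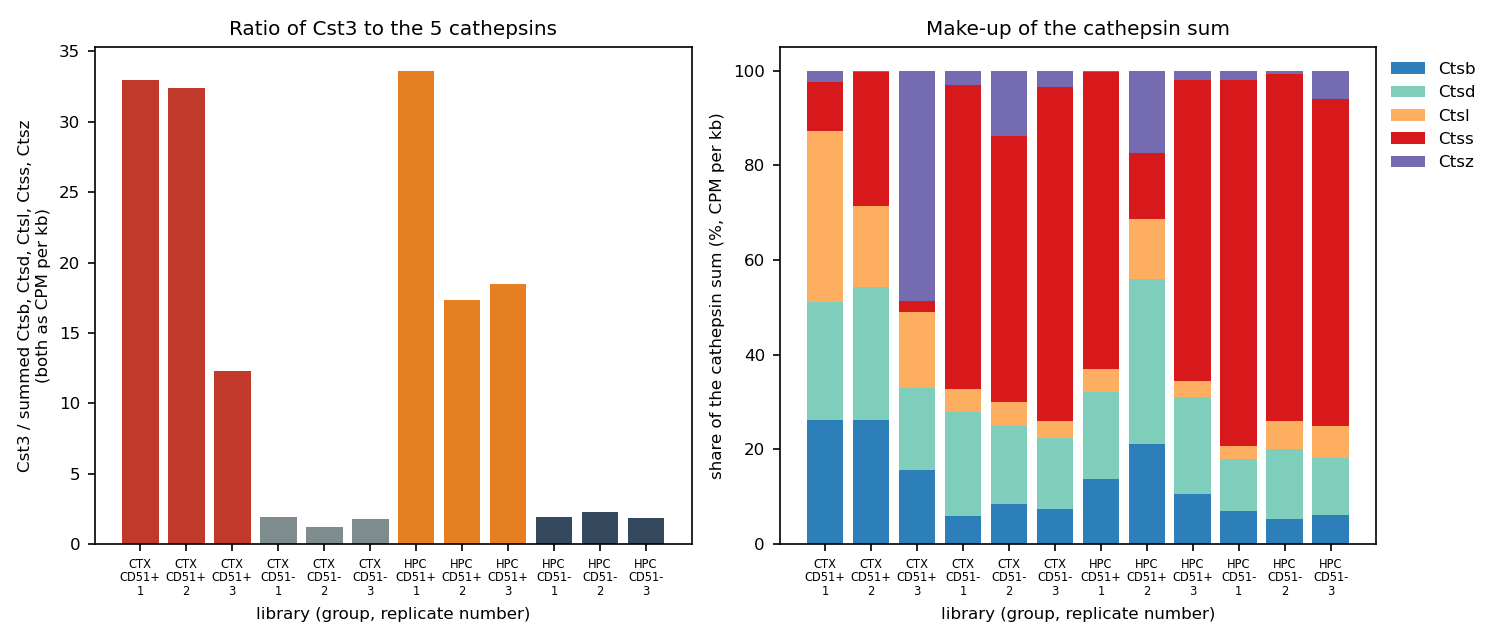
Left, ratio of Cst3 to the 5 summed cathepsins (CPM per kb) in each library, CD51+ left of CD51- within each region (CTX, cortex; HPC, hippocampus). Right, percent of the cathepsin sum from each gene; the ratio is 12.3 to 33.6 in CD51+ libraries and 1.22 to 2.29 in CD51- libraries.

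The members were then set against the microglial sum of each library. The correlation over the 12 libraries was 0.96 for Cd68, 0.93 for Ctsd, 0.92 for Ctss and 0.89 for Ctsb, 0.80 for Hexa, 0.70 for Ctsl and 0.51 for Ctsz, and -0.62 for Lamp1 and -0.43 for Cst3. With the oligodendrocyte sum it was 0.82 for Cd68, 0.83 for Ctsd, 0.81 for Ctss, 0.79 for Ctsb, 0.54 for Hexa, 0.55 for Ctsl, 0.48 for Ctsz, -0.44 for Lamp1 and -0.75 for Cst3. With the astrocyte sum it was -0.83 for Cd68, -0.88 for Ctsd, -0.87 for Ctss and -0.81 for Ctsb. It was -0.79 for Hexa, -0.63 for Ctsl and -0.54 for Ctsz, and 0.67 for both Lamp1 and Cst3. These are descriptions of log2(CPM + 1) levels in libraries that fall into 2 classes. Per 1000 CPM of microglial markers, Ctss stood at 20.7 ± 7.99 CPM in cortex CD51+ and 71.6 ± 12.1 CPM in cortex CD51-, and at 141 ± 106 CPM in hippocampus CD51+ and 103 ± 14.9 CPM in hippocampus CD51-. Cd68 stood at 24.2 ± 26.01 CPM in cortex CD51+ and 66.1 ± 18.2 CPM in cortex CD51-, and at 40.1 ± 35.2 CPM in hippocampus CD51+ and 55.5 ± 14.6 CPM in hippocampus CD51-. Relative to the summed markers, Ctss was thus lower in every cortex CD51+ library than in every cortex CD51- library. The classes overlapped for Cd68 in both regions and for Ctss in hippocampus. The single markers differed widely. In cortex Cx3cr1 averaged 165 CPM in CD51+ and 924 CPM in CD51-, while Tyrobp averaged 1.63 and 385 CPM. Cx3cr1, Csf1r and P2ry12, at 165, 144 and 142 CPM, were the highest in cortex CD51+. Levels relative to single markers were not computed. Per 1000 CPM of the summed markers, Ctsb had 247 ± 133 CPM in cortex CD51+ and 36.6 ± 8.32 in cortex CD51-. In hippocampus it had 278 ± 228 in CD51+ and 38.8 ± 9.73 in CD51-. Ctsd had 101 ± 59.9 in cortex CD51+ and 34.3 ± 4.67 in cortex CD51-, and 170 ± 145 in hippocampus CD51+ and 30.3 ± 2.14 in hippocampus CD51-. Every CD51+ library had more Ctsb and Ctsd for its microglial markers than every CD51- library. The means of Ctsl, Ctsz, Hexa, Lamp1 and Cst3 on this scale were also higher in CD51+ in both regions. Only Ctss in cortex and Cd68 in both regions had lower means in CD51+. The divisor was small and uneven in CD51+, at 322 to 1032 CPM in cortex and 163 to 1705 CPM in hippocampus. Of the 14 microglial markers, Aif1 was at 0 in all 3 cortex CD51+ libraries and no other was at 0 in a whole group. Per 1000 CPM of astrocyte markers, every member had a lower mean in CD51+ in both regions. Cst3 stood there at 40.0 ± 7.22 CPM in cortex CD51+ and 255 ± 144 CPM in cortex CD51-. In hippocampus it stood at 51.0 ± 19.0 CPM in CD51+ and 116 ± 19.3 CPM in CD51-.

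**Figure D4:**
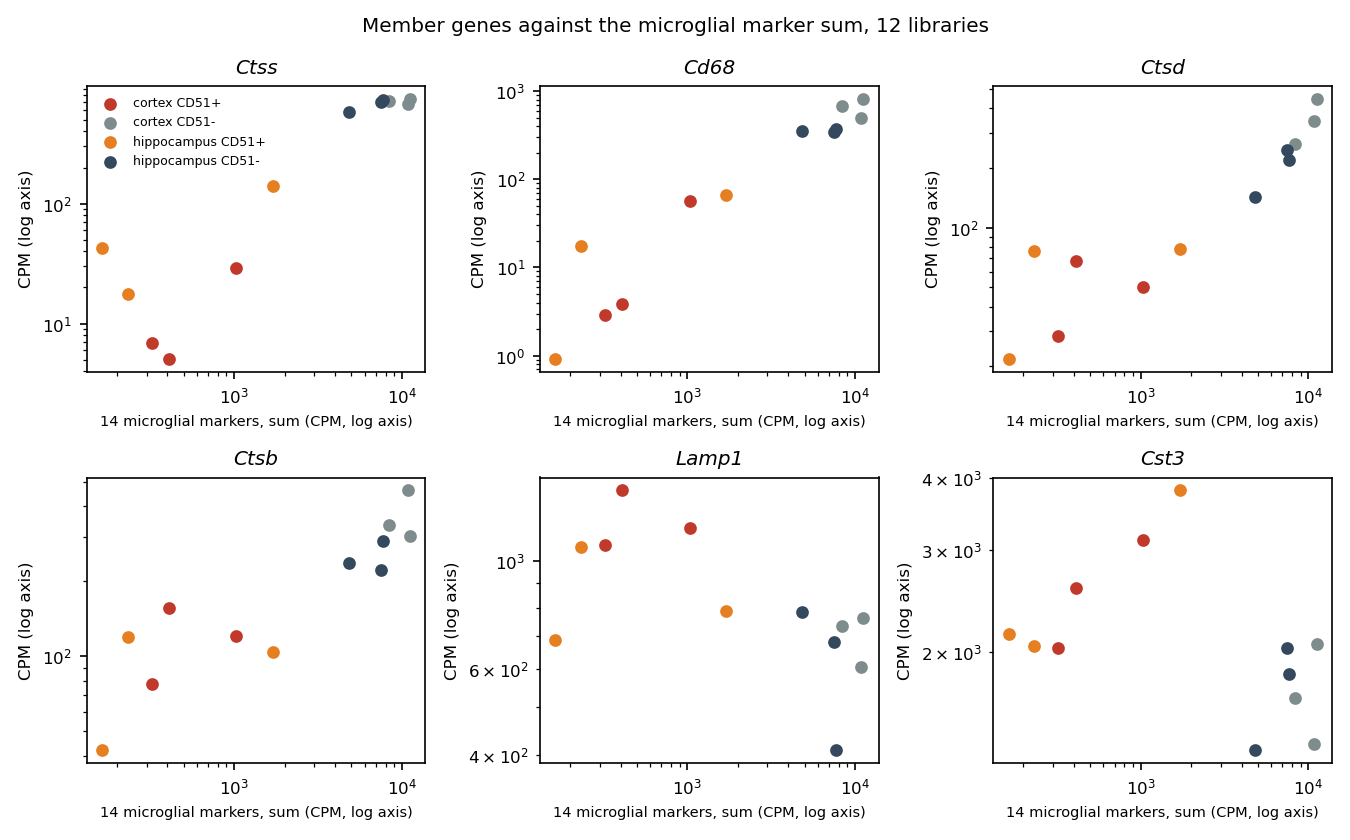
CPM of 6 member genes against the summed CPM of 14 microglial markers (both log axes), 1 point a library. Ctss, Cd68, Ctsd and Ctsb are higher where the sum is high, at 4817 to 11207 CPM in CD51- libraries, while Lamp1 and Cst3 are not.

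Between regions no member passed the test. Hippocampus against cortex gave 0 member calls with edgeR in CD51+ cells and 0 in CD51- cells, and 0.0396% (0.0238% higher and 0.0159% lower) and 0% of all tested genes were called. At an unadjusted p of 0.05, 2 members passed in CD51+ cells and 0 in CD51- cells, and DESeq2 and limma-voom called 0 members in either, where they called 556 and 2 genes in CD51+ cells and 789 and 109 genes in CD51- cells. The 2 members were Ctsl (-1.53 ± 0.72, edgeR adjusted p = 0.402) and Ctss (2.28 ± 0.73, adjusted p = 0.315). Libraries of the regions did not overlap for 2 members in CD51+ cells, Ctsl and Lamp1, both lower in hippocampus, where 5.97% of all genes were wholly lower and 7.54% wholly higher. In CD51- cells they did not overlap for 3, Ctsb, Ctsd and Cd68, again lower in hippocampus, where 4.25% were wholly lower and 10.4% wholly higher. Cst3 had a log2 fold change of 0.05 ± 0.41 between the regions in CD51+ cells and 0.03 ± 0.41 in CD51- cells. The test of the difference between the regions' CD51 effects called 0 members with edgeR, DESeq2 and limma-voom, with 1 at an unadjusted p of 0.05 (Ctss, above). Of all genes, 0% were called there by edgeR, 0 genes by limma-voom and 531 by DESeq2.

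By likeness of pattern over the 12 libraries (Pearson correlation of log2(CPM + 1), 3 genes for each member), the nearest genes to Ctss were Ucp2 (0.98), the cathepsin gene Ctsh (0.97) and Tyrobp (0.97), a microglial adaptor. For Cd68 they were Btg1, Siglech and Maf (each 0.98). For Ctsd they were Marcks, Actb and Ifngr1 (each 0.96), for Ctsb Marcks (0.96), Mef2a and Stat3 (each 0.95). Cst3 was nearest to Cyp4f14 (0.92), Mrps22 (0.88) and Cyp46a1 (0.87), and Lamp1 to Agpat5 (0.92), Grm3 (0.89) and Hmgcs1 (0.87). For Ctsl they were Plcl2 and Atp8a1 (each 0.89) and Etf1 (0.88), for Ctsz Foxo4 (0.93), Irf9 (0.88) and Sec24b (0.87), and for Hexa Chd7 (0.92), Wdr44 and Maml3 (each 0.90). Marcks was thus shared by Ctsb and Ctsd, whose own correlation was 0.94, and no gene was shared by Cst3 and a cathepsin.

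Other lysosomal genes were read from 8 lists of 111 genes, of which 99 were tested. In the average over both regions 3 were higher and 18 lower in CD51+, with a median log2 fold change of -0.82 (-0.81 with genes near 0 counts set at a floor of 3 counts), against 8.87% higher and 13.9% lower and a median of -0.14 over all genes. In cortex 1 was higher and 11 were lower, where 11.3% of all genes were called (5.05% higher and 6.27% lower). In hippocampus 0 passed with edgeR, where 3.31% of all genes did. An unadjusted p under 0.05 was reached by 24 of them and by 2407 of all genes. DESeq2 called 13 and limma-voom 4, where they called 1507 and 885 genes in all.

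Among the other cathepsins and legumain, 3 of 6 tested genes were lower and none higher in the average. Of all genes 13.9% were lower and 8.87% higher. Lgmn, which encodes the asparaginyl protease that cuts cathepsin precursors, averaged 10.8 ± 3.58 CPM in cortex CD51+ and 259 ± 93.1 CPM in cortex CD51-, and 35.1 ± 24.8 CPM in hippocampus CD51+ and 141 ± 27.0 CPM in hippocampus CD51- (log2 fold change -3.29 ± 0.55, edgeR adjusted p = 0.00018). Ctsh fell by 5.74 ± 1.06 on the log2 scale (adjusted p = 0.00049) and Ctsc, the activator of granule serine proteases, by 2.55 ± 0.69 (adjusted p = 0.0108). Ctsa, which protects beta-galactosidase and sialidase, had -1.80 ± 0.68 (adjusted p = 0.0600). Ctsa passed in 9 of 21 alternatives, among them limma-voom (adjusted p = 0.0299), and was -3.39 without hippocampus CD51+ replicate 3 (adjusted p = 0.00065). The other 2, Ctso and Ctsf, named after their values were seen, had 0.43 ± 0.54 and 0.67 ± 1.06 (adjusted p = 0.624 and 0.703).

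Of the other inhibitors, 3 of 6 were tested and 1 was called, higher, where 8.87% of all genes were higher and 13.9% lower. Serpinb1a, a serpin that inhibits granule proteases, averaged 1.34 ± 0.989 CPM in cortex CD51+ and was at 0 in cortex CD51-, and averaged 22.3 ± 36.2 CPM in hippocampus CD51+ and 0.662 ± 0.995 CPM in hippocampus CD51- (edgeR adjusted p = 0.0270). That call was lost without hippocampus CD51+ replicate 2 (adjusted p = 0.132), without cortex CD51- replicate 1 or 2 (0.0551 and 0.0553) and without hippocampus CD51- replicate 1 or 2 (0.0537 and 0.0599). The intracellular cystatin Cstb had -3.48 ± 1.58 (adjusted p = 0.116, and 0.0200 with DESeq2) and Serpinb6a -1.27 ± 1.47 (adjusted p = 0.586). The other cystatins, Cst6, Cst7 and Cst8, had at most 1 count in any group.

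Of 20 tested glycosidases and sulfatases, 5 were lower and none higher in the average, against 13.9% lower and 8.87% higher of all genes. Man2b1, the lysosomal alpha-mannosidase, had a log2 fold change of -3.13 ± 0.82 (edgeR adjusted p = 0.00914). Gusb, beta-glucuronidase, had -3.52 ± 0.99 (edgeR adjusted p = 0.0136).

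Gm2a, the activator that presents GM2 to the hexosaminidase that contains the Hexa product, was the 1 higher gene of the list of other hydrolases and activators. It averaged 179 ± 49.6 CPM in cortex CD51+ and 48.3 ± 24.8 CPM in cortex CD51-, and 172 ± 35.7 CPM in hippocampus CD51+ and 66.5 ± 14.2 CPM in hippocampus CD51-. All 6 CD51+ libraries were above all 6 CD51- libraries, with a log2 fold change of 1.63 ± 0.49 (edgeR adjusted p = 0.0199). The call was lost in 7 of 12 fits that left out 1 library, namely cortex CD51+ replicates 1 and 3, cortex CD51- replicate 3, hippocampus CD51+ replicates 2 and 3, and hippocampus CD51- replicates 2 and 3, with adjusted p between 0.0507 and 0.0658, and without a filter on low counts (0.0943). Of the 13 tested genes of that list, 3 were lower and 1 higher, against 13.9% lower and 8.87% higher of all genes. Dnase2a, the acid DNase, averaged 0.0427 ± 0.0740 CPM in cortex CD51+ and 53.9 ± 34.97 CPM in cortex CD51-, and 3.31 ± 3.12 CPM in hippocampus CD51+ and 45.9 ± 38.8 CPM in hippocampus CD51- (edgeR adjusted p = 0.00049). Rnaset2b, a ribonuclease with a near-identical copy in Rnaset2a, and the phospholipase gene Pla2g15 were the others (adjusted p = 0.0185 and 0.0188). Both were lost without hippocampus CD51+ replicate 1 (0.0519 and 0.0504) or replicate 2 (0.0575 and 0.0511). Rnaset2b was also lost without cortex CD51+ replicate 1 or 2 (0.0511 and 0.0538) or cortex CD51- replicate 2 (0.0533), and Pla2g15 without cortex CD51+ replicate 3 (0.0535) or cortex CD51- replicate 1 (0.108).

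Lamp1's fellow membrane proteins were divided, with 1 of 16 higher and 3 lower, against 8.87% higher and 13.9% lower of all genes. Their median log2 fold change was 0.26 in cortex, -0.85 in hippocampus and -0.19 on average. Laptm5, a protein of haematopoietic lysosomes, averaged 8.61 ± 7.02 CPM in cortex CD51+ and 324 ± 131 CPM in cortex CD51-, and 34.7 ± 47.9 CPM in hippocampus CD51+ and 302 ± 64.4 CPM in hippocampus CD51- (log2 fold change -4.17 ± 0.79, edgeR adjusted p = 0.00066). Ctns, the cystine exporter, had -3.62 ± 0.98 (adjusted p = 0.0115). Slc38a9, an arginine sensor for mTORC1, had -2.54 ± 0.92 (adjusted p = 0.0493), and lost its call in 10 of the 12 fits without 1 library (0.0650 to 0.0971; all but cortex CD51- replicate 2 and hippocampus CD51+ replicate 1) and with RLE or upper-quartile factors (0.0538 and 0.0763). Without hippocampus CD51+ replicate 1 it was -4.53 (adjusted p = 0.00287). Laptm4b was higher, at 51.6 ± 66.9 CPM in cortex CD51+ and 0.243 ± 0.421 CPM in cortex CD51-, and 23.4 ± 6.22 CPM in hippocampus CD51+ and 7.55 ± 10.0 CPM in hippocampus CD51- (adjusted p = 0.0167, and 0.0887 without cortex CD51+ replicate 2).

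The proton pump that acidifies lysosomes had a list median of 0.44 in cortex, -0.57 in hippocampus and -0.04 on average. Over all genes the medians were -0.03, -0.22 and -0.14. In the average 2 of 19 tested subunits were lower and none higher. Of all genes 13.9% were lower and 8.87% higher. Tcirg1, the a3 subunit of osteoclasts and macrophages, had -5.97 ± 1.23 (edgeR adjusted p = 0.00142). Atp6v0b averaged 0.0676 ± 0.117 CPM in cortex CD51+ and 42.3 ± 20.7 CPM in cortex CD51-, and 16.6 ± 26.2 CPM in hippocampus CD51+ and 16.1 ± 8.03 CPM in hippocampus CD51- (adjusted p = 0.0151). The next 2 by p, Atp6ap2 and Atp6v1h, had -1.86 ± 0.77 and -2.24 ± 0.94 (adjusted p = 0.0864 and 0.0893, and 0.0302 and 0.0126 with DESeq2).

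Of 11 sorting genes 0 passed with edgeR in the average, where 22.7% of all genes did. An unadjusted p under 0.05 was reached by 5 of them and by 4442 of all genes. DESeq2 and limma-voom each called 3, where they called 3882 and 3065 genes in all. The growth factor precursor Grn had -1.62 ± 0.62 (adjusted p = 0.0634, and 0.0164 with limma-voom) and the adaptor Gga3 -2.38 ± 1.01 (0.0937), and with DESeq2 Gga3 had 0.0104. Gnptg, a subunit of the enzyme that makes the mannose 6-phosphate tag, had 2.69 ± 1.16 (0.0961, and 0.0441 with DESeq2 and 0.0466 with limma-voom). Nagpa, which uncovers that tag, had -3.49 with an adjusted p of 0.0793 (0.0147 with DESeq2, 0.0266 with limma-voom, and -5.33 at 0.0429 without cortex CD51+ replicate 3). It averaged 0.203 ± 0.351 CPM in cortex CD51+ and 19.9 ± 21.9 CPM in cortex CD51-, and 14.2 ± 21.8 CPM in hippocampus CD51+ and 18.5 ± 15.4 CPM in hippocampus CD51-.

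Of 11 genes for MiT/TFE factors and mTORC1 docking, 2 were lower and none higher with edgeR, against 13.9% lower and 8.87% higher of all genes, and DESeq2 called 4 and limma-voom 3. Tfe3 had -2.84 ± 0.79 (edgeR adjusted p = 0.0132). Tfeb, the factor that binds the CACGTG-cored motif capitalised in the Lamp1 and Ctsd promoters, averaged 6.29 ± 10.0 CPM in cortex CD51+ and 43.5 ± 46.0 CPM in cortex CD51-, and was at 0 in hippocampus CD51+ and at 11.9 ± 12.3 CPM in hippocampus CD51- (adjusted p = 0.0111). Mitf and Flcn had -2.07 ± 0.86 and -1.70 ± 0.74 (adjusted p = 0.0856 and 0.100, and 0.0168 and 0.0104 with DESeq2). Lamp1, with 4 copies of the motif core, had an average log2 fold change of 0.61 ± 0.33 and was not called (edgeR adjusted p = 0.184). Ctsd, with 2 copies, had -2.32 ± 0.49 (edgeR adjusted p = 0.00185). A part of the motif or of Tfeb in these values was not tested.

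**Figure D5:**
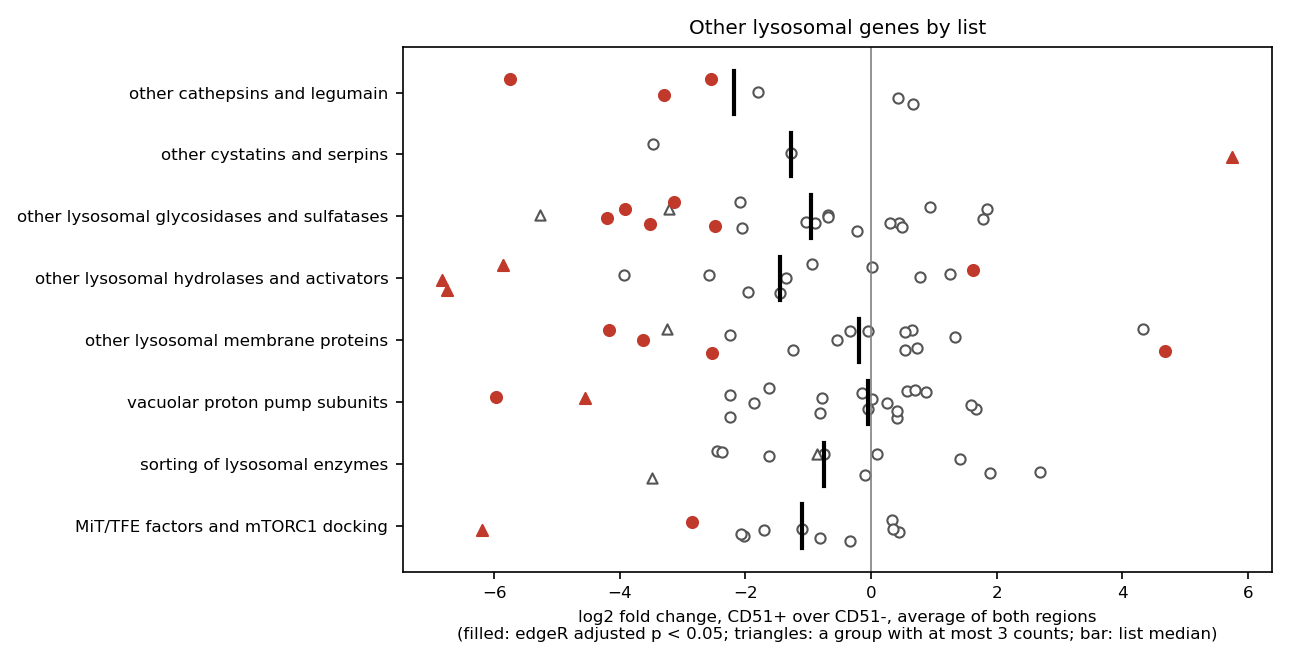
Average log2 fold change of CD51+ over CD51- cells for the 99 tested genes of the 8 lists, 1 row a list; filled symbols passed an edgeR adjusted p of 0.05, triangles have a group with at most 3 counts, and bars are list medians. In this average the proton pump and membrane lists centre near 0, with medians above 0 in cortex and below 0 in hippocampus. The cathepsin list lies lower, with a median of -2.17.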

How the data were processed

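RNA-seq libraries (12) were made from sorted cells with a low-input kit and read in pairs of 150 bases, per the labels' protocols. The deposited values are raw counts per gene: per the file headers, featureCounts 2.0.4 counted read pairs over GENCODE vM25 exons without regard to strand, and no option for overlapping genes was set. STAR, mm10 and DESeq2 1.40.2 are named in the submitters' processing notes. Read pairs that fall on exons of 2 genes are left uncounted by default; how many this took from each member was not measured. Exon length in bases comes from the same deposited table.

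Groups follow the titles. Symbols came from a GENCODE vM21 table (55141 of 55401 IDs matched). CPM values are counts scaled to a fixed total with TMM-scaled library sizes, divided by exon length for comparisons between genes. Genes were filtered with filterByExpr (minimum count 10, total 15) and tested with the quasi-likelihood test of edgeR 4.0.16 in R 4.3.3, 12 libraries in 1 fit, Benjamini-Hochberg adjustment over 12613 genes and a threshold of 0.05. Each SE was derived from a log2 fold change and its F statistic (size over the root of F). Contrasts were CD51+ against CD51- in each region and averaged, hippocampus against cortex in each class, and the interaction. The biological coefficient of variation, from the dispersion common to all genes, was 1.28, and at that spread only large differences can pass. Genes differed in precision, with an SE in the average of 0.29 for Cst3 and 1.09 for Ctsz. Alternatives were DESeq2 1.42.0, limma-voom (limma 3.58.1), RLE and upper-quartile factors, a filter of 1 CPM in 3 libraries or none, mitochondrial genes left out, replicate blocks, only the libraries compared, and each library left out. The fit was tested on simulated data. Drawn around each gene's own dispersion, false calls were well above the nominal rate, so adjusted p-values may be too small, most of all near the threshold. A second simulation around the dispersion trend, added after that result was seen, came nearer to the nominal rate. Of each list, up to 4 genes with the smallest average p are named, and for each member the 3 genes nearest in pattern. A few genes of the lists are counted but not reported by name here. Members and lists were chosen with earlier results of these data known. Figures were drawn with matplotlib 3.10.9.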

Additional observations from a re-analysis of the deposited data

How the results depend on the processing

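In the CD51 comparisons, every member kept its direction under all alternatives except Ctsz in cortex, whose log2 fold change was -6.50 to 0.10 with 1 library left out. The 12 libraries and their dispersion limit the calls, and Hexa and Ctsz, with as few as 3 and 1 counts in a library, are the least precise. Member calls in cortex, 3 as reported, were 5 with DESeq2, 4 with limma-voom and 2 to 3 with a library left out. In hippocampus, 1 as reported, they were 3 with DESeq2 and with the replicate block within region, 2 with limma-voom, no filter, mitochondrial genes left out, the replicate block and only the libraries compared, and 0 to 3 with a library left out. In the average, 5 as reported, they were 7 with limma-voom, 6 with DESeq2 and with upper-quartile factors, and 3 to 6 with a library left out. The calls over all genes under these alternatives are given below. Calls gained included Ctsb in cortex (adjusted p = 0.0251 with DESeq2, 0.0284 with limma-voom), Hexa in cortex (0.0431 with DESeq2), Ctsl in hippocampus (0.0237 with DESeq2) and Cst3 in the average (0.0168 with limma-voom, 0.0490 with upper-quartile factors), and, in the average, Lamp1 (0.0225 with limma-voom), Hexa (0.0182 with DESeq2) and Ctsz (0.0221 without cortex CD51+ replicate 3). Cd68 in hippocampus was gained in 14 of 22 alternatives. Upper-quartile factors moved the median of all genes in the average to 0.04 from the reported -0.14, and Cst3 to 0.78. The cause of these changes was not tested.

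Over all genes, 1428 calls in cortex became 3545 with DESeq2, 2164 with limma-voom and 879 to 1507 with a library left out. In hippocampus 418 became 1507, 885 and 198 to 559, and 636 without a filter. They were 467 there with mitochondrial genes left out, 435 with the replicate block, 591 with the block within region and 601 with only the libraries compared. In the average 2868 became 3882 with DESeq2, 3065 with limma-voom, 2907 with upper-quartile factors and 2112 to 3205 with a library left out. Hippocampus against cortex gave 5 calls in CD51+ cells, with 556 under DESeq2, 2 under limma-voom, 97 without a filter, 0 with the replicate block, 3 with only the libraries compared and 2 to 35 with a library left out. In CD51- cells it gave 0 with edgeR (1664 at an unadjusted p under 0.05), 789 with DESeq2, 109 with limma-voom, 112 without a filter and 0 to 68 with a library left out. The interaction gave 0 with edgeR (1583 unadjusted), 531 with DESeq2, 0 with limma-voom, 146 without a filter, 7 with the replicate block within region and 0 to 42 with a library left out. Calls over the 8 lists were 8 to 28 in cortex, 0 to 13 in hippocampus and 16 to 36 in the average.

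Signs turned only for values that were uncalled as reported. Serpinb6a in the average became 0.94 with limma-voom, 0.12 with the replicate block within region and -1.57 to 0.22 with a library left out. Between regions in CD51+ cells, Cst3 became -0.045 with limma-voom and, with a library left out, Cst3 ran from -0.32 to 0.22, Ctsd from -0.011 to 0.66, Ctsz from -4.02 to 3.29, Hexa from -0.35 to 1.23 and Cd68 from -1.17 to 3.07. In CD51- cells, Cst3 became -0.065 with DESeq2, -0.063 with RLE factors and -0.052 with limma-voom, and with a library left out Cst3 ran from -0.10 to 0.20, Ctsl from -0.50 to 0.30, Ctss from -0.20 to 0.0031 and Lamp1 from -0.37 to 0.023. For the interaction, Cst3 became -0.017 with the replicate block within region, and Ctsz became 1.58 with limma-voom, 0.085 with the replicate block and 1.21 with the block within region. With a library left out, Cst3 ran from -0.37 to 0.18, Ctsb from -0.15 to 0.47, Ctsz from -2.58 to 4.81 and Cd68 from -0.29 to 3.96. Without division by length, the mean ratio of Cst3 to the cathepsins was 8.27 in cortex CD51+ and 0.981 in cortex CD51-, and 11.5 in hippocampus CD51+ and 1.26 in hippocampus CD51-.

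Same-numbered libraries did not deviate together (correlations of -0.0138 to 0.0155). With 3 libraries a group, this cannot settle whether a number marks a shared animal, and the labels do not say. With the replicate block Cd68 in hippocampus had an adjusted p of 0.0312, and no member lost its call, while in the average Serpinb1a lost its call (adjusted p = 0.0819), and Rnaset2b lost its call with the replicate block within region (0.0518).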
